A study of Homo sapiens with 4 samples.

Results

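The MHC class I pathway is represented here by 9 genes: the heavy chains HLA-B, HLA-C and HLA-E, the light chain B2M, the peptide transporter subunits TAP1 and TAP2, the loading protein TAPBP, and the inducible proteasome subunits PSMB8 and PSMB9. They were given as a list of names and matched by NCBI Gene ID. All 9 were listed in all 4 libraries, out of 17490 genes listed in at least 1 library.

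The libraries come from mRNA of 2 established human lung adenocarcinoma cell lines with activating EGFR mutations, H1975 and HCC827. H1975 cells were either sensitive or resistant to osimertinib, and HCC827 cells were either sensitive or resistant to gefitinib; both drugs inhibit the EGFR tyrosine kinase. Each of the 4 groups had 1 library, so differences within a line come without replication and without a p-value. The sources used here do not say how resistance was obtained, whether a resistant line is 1 clone, or whether drug was present at harvest.

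MHC class I molecules display peptides from inside the cell to CD8+ T cells. The proteasome cuts proteins into peptides, the TAP transporter moves them into the endoplasmic reticulum, and tapasin, encoded by TAPBP, helps load them onto a heavy chain paired with beta-2 microglobulin. Interferons and NF-kappaB raise transcription of most of these genes in many cell types, and the transactivator NLRC5 acts at the class I promoters.

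Depth was 22145163 and 22217897 expected counts in sensitive and resistant H1975, while the HCC827 libraries were shallower, at 10934558 and 11034837, which widens every HCC827 interval given here. Of 5 epithelial markers, 3 were lower by over 2-fold in resistant H1975 and 5 in resistant HCC827. Of all genes considered, 11.8% in H1975 and 18.0% in HCC827 differed by 2-fold or more in either direction, beyond counting error. CDH1, the epithelial cadherin, had 85.6 and 0.73 FPKM in sensitive and resistant H1975 and 189.2 and 46.3 FPKM in HCC827. EPCAM had 150.5 and 2.85 FPKM in H1975 and 207.2 and 29.9 FPKM in HCC827. The low CDH1 and EPCAM of resistant H1975 go against the labelled cell type. KRT7, KRT8 and KRT18 stayed abundant, at 192.5, 455.2 and 353.9 FPKM in resistant H1975 and 328.6, 719.5 and 702.8 FPKM in resistant HCC827. The log2 ratios of KRT8 and KRT18 were −0.46 and −0.49 in H1975. The lung factor NKX2-1 had 7.66 and 5.97 FPKM in H1975 and 25.4 and 0.08 FPKM in HCC827. NAPSA, another lung marker, had 0.32 and 0.09 FPKM in H1975 and 42.1 and 0.29 FPKM in HCC827. Of 4 lung markers, 3 were lower by over 2-fold in resistant HCC827, and 0 of the 2 considered in H1975. The low NKX2-1 and NAPSA of resistant HCC827 go against the labelled lung type too. Markers of other cells were low for the most part. The leukocyte gene PTPRC lay between 0.27 and 0.50 FPKM in the 4 libraries, and CD3E was not listed in any. The summed blood cell list of 7 genes was 82.2 to 107 FPKM, most of it from the lysosomal gene CD68 at 74.2 to 100.2 FPKM. The summed list of 7 fibroblast and endothelial markers was 2.59 to 16.4 FPKM, with DCN at 0 in 3 libraries and COL3A1 at 0 in both H1975 libraries. COL1A1, a collagen, made up most of the H1975 sums, at 14.9 and 9.41 FPKM in sensitive and resistant cells. LUM had 3 and 66 counts in sensitive and resistant HCC827, and CDH5 had 94 and 10 counts in H1975, both differences of over 2-fold. In cultures, fewer cells of a kind and less RNA per cell cannot be told apart, and the part of other cells in the class I values was not tested.

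The first question was how strongly each line expressed the pathway. FPKM, which scales fragments by transcript length and library total, allows comparison between genes. Sensitive H1975 cells had the higher level of 8 of the 9 genes, and HLA-B was furthest apart from sensitive HCC827 at 18.7-fold. The distance was 7.42-fold for PSMB9, 4.31-fold for TAP1 and 3.15-fold for TAP2. For HLA-C, HLA-E, B2M and PSMB8 it lay between 2.26-fold and 2.68-fold. TAPBP was the exception, at 60.5 FPKM in sensitive H1975 and 64.1 FPKM in sensitive HCC827. The same 8 genes were also higher in resistant H1975 than in resistant HCC827, with HLA-B at 8.23-fold, TAP1 at 4.59-fold and PSMB9 at 4.40-fold, and TAPBP then stood at 1.13-fold. These distances are descriptions of 4 libraries. The share of all genes higher in H1975 was not counted, so 8 of 9 cannot be read as a trait of this pathway. The 2 lines need not carry the same HLA alleles or those of the reference. What this does to the HLA-B, HLA-C and HLA-E levels was not tested. The transcript annotation also differed between the 2 lines, which affects FPKM. For TAP2 the deposited mean transcript length was 3438.4 bases in sensitive H1975 and 4831.4 bases in sensitive HCC827.

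B2M had the highest level of the 9 in every library. In sensitive H1975 the order after it was HLA-B, HLA-C, HLA-E, PSMB8, TAPBP, PSMB9, TAP2 and TAP1. In sensitive HCC827 it was HLA-C, TAPBP, PSMB8, HLA-E, HLA-B, TAP2, TAP1 and PSMB9. HLA-B thus ranked 143rd of all genes in sensitive H1975 and 3180th in sensitive HCC827, with the same limit of unknown alleles. With 1 library a group there is no spread by which to separate close neighbours such as HLA-E and PSMB8 in sensitive H1975, at 80.9 and 79.2 FPKM.

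**Figure D1:**
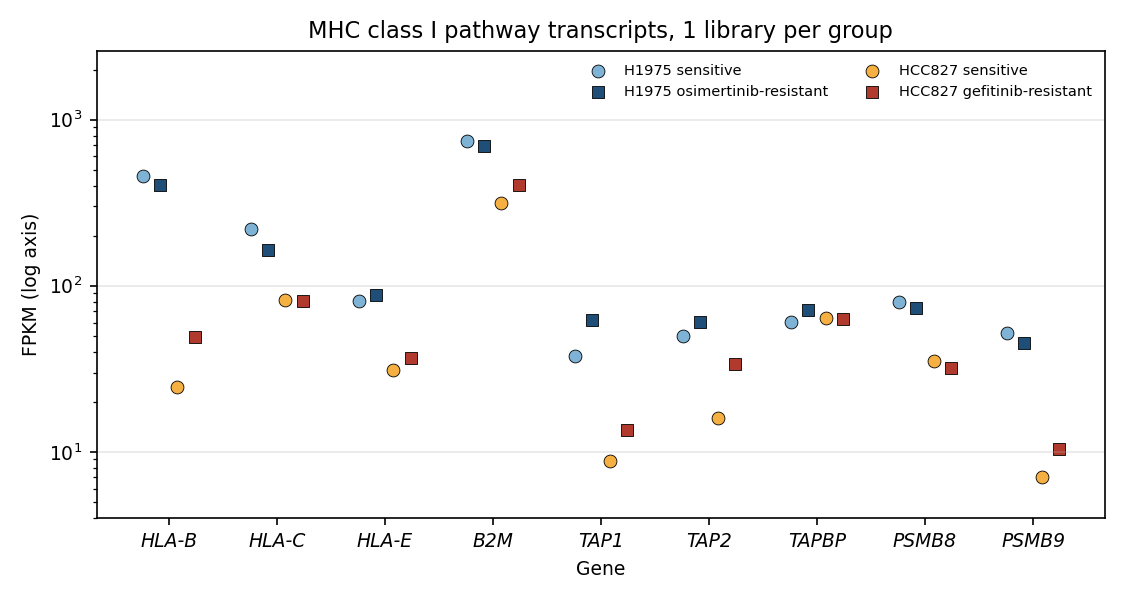
FPKM (log axis) of the 9 MHC class I pathway genes, with 1 point for each of the 4 libraries; circles are sensitive and squares resistant cells, and no error bar is drawn because each group has 1 library. B2M lies at the top in every library, and HLA-B drops from 460.2 FPKM in sensitive H1975 to 24.7 FPKM in sensitive HCC827, while TAPBP lies between 60.5 and 71.3 FPKM throughout.

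Resistant and sensitive cells of the same line were then compared by the log2 ratio of normalised counts. Brackets hold exact 95% intervals, which reflect counting error alone. To be called, a gene needed a difference of 2-fold or more and an interval clear of 0. None of the 9 genes was called in either line, against 11.8% of 11872 genes considered in H1975 and 18.0% of 11890 in HCC827. At a lower limit of 1.5-fold, TAP1 was higher in resistant H1975, and HLA-B, TAP1 and TAP2 were higher in resistant HCC827. The share of all genes higher at that limit was 9.31% in H1975 and 15.3% in HCC827. The members' median log2 ratio was −0.07 in H1975 and 0.31 in HCC827, beside medians of 0.00 in both lines over all genes considered.

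Counting intervals excluded 0 for 8 members in H1975, with 4 higher and 4 lower in the resistant library. In HCC827 they did so for 6 members, all higher in the resistant library, while HLA-C, TAPBP and PSMB8 had intervals that included 0. Over all genes, 36.4% were higher and 36.8% lower by this measure in H1975, and 34.6% and 35.1% in HCC827. An interval of this kind says nothing about variation between cultures.

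Among the heavy chains, HLA-B, which presents peptides to CD8+ T cells, had 16422.6 and 14383.9 expected counts in sensitive and resistant H1975, and 434.9 and 868.7 in HCC827. The resistant library was thus the lower one in H1975 and the higher one in HCC827. The log2 ratio was −0.18 [−0.22, −0.15] in H1975 and 0.93 [0.76, 1.10] in HCC827, where the gene lay just inside the 2-fold limit at 1.91-fold. HLA-C, a classical heavy chain that is also a ligand of natural killer cell receptors, had 220.8 and 164.2 FPKM in H1975 and 82.5 and 81.1 FPKM in HCC827. Its ratio was −0.41 [−0.46, −0.36] in H1975, the lowest of the members there, and −0.08 [−0.19, 0.03] in HCC827. HLA-E, a nonclassical heavy chain recognised by NKG2A receptors of natural killer cells, had 80.9 and 88.0 FPKM in H1975 and 31.0 and 36.8 FPKM in HCC827. It was slightly higher in both resistant libraries, at 0.14 [0.08, 0.19] and 0.19 [0.06, 0.32].

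The promoters of HLA-B and HLA-C are shown because these neighbouring genes had different ratios in HCC827. The sequences are the 250 bases upstream of the start site from RefSeq (GRCh38.p14), at chr6:31357180-31357429 for HLA-B and chr6:31272093-31272342 for HLA-C, both on the minus strand and printed 5′ to 3′. They are the reference alleles, which the cell lines need not carry. Capitals mark matches to an interferon response element, searched as GAANNGAAA or as a pair of GAAA runs 2 bases apart, and to the NF-kappaB consensus, on both strands.
HLA-B promoter: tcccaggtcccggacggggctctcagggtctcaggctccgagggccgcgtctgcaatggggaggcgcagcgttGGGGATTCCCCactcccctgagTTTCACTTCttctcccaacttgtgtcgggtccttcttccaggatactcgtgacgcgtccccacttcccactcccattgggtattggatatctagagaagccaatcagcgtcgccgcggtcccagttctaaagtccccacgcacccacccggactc
HLA-C promoter: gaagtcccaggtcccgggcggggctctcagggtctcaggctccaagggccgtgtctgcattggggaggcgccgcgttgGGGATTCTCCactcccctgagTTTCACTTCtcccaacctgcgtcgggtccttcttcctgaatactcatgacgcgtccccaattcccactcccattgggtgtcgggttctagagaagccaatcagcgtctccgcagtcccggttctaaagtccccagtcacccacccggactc
The aligned windows were 91.9% identical over 246 bases. Each held 1 interferon element match, 155 and 151 bases upstream in HLA-B and HLA-C. HLA-B had 2 overlapping NF-kappaB matches in 1 run, and HLA-C had 1 match at the aligned place. Both also held CCAAT and the cyclic AMP response half-site TGACG, letters that belong to the module bound by the NLRC5 complex; 32.0% and 21.2% of all promoter windows hold these.

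The authors' RSEM counts were not whole for HLA-B, HLA-C and HLA-E in any library. Reads were thus shared out with similar sequence elsewhere, but the counts do not show with which genes, so the split between these copies is uncertain. Such counts are common. Whole counts were found for 55.05% and 55.15% of listed genes in sensitive and resistant H1975 and 69.5% and 69.8% in HCC827. HLA-F and HLA-G also had counts that were not whole in any library, and were therefore set beside the members. HLA-F lay at 6.25 to 14.5 FPKM and HLA-G at 0.14 to 2.62 FPKM.

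B2M, the invariant light chain that every classical heavy chain needs to reach the cell surface, had 745.8 and 694.3 FPKM in sensitive and resistant H1975. In HCC827 it had 312.9 and 403.4 FPKM. Its counts were whole in all 4 libraries. The resistant library was a little lower in H1975, at −0.09 [−0.12, −0.06], and higher in HCC827, at 0.31 [0.25, 0.38].

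Both TAP genes were higher in each resistant library. TAP1, a subunit of the transporter that pumps peptides into the endoplasmic reticulum, had 2310.9 and 3661.7 expected counts in sensitive and resistant H1975, and 255.8 and 421.9 in HCC827. The resistant library was the higher one by 1.59-fold in H1975 and 1.57-fold in HCC827. The log2 ratios of 0.67 [0.60, 0.75] and 0.65 [0.43, 0.88] differed by −0.02 [−0.26, 0.22] between the lines. TAP2, the partner subunit, had 3828.1 and 4773.3 counts in H1975 and 845.2 and 1555.1 in HCC827. It was 1.25-fold and 1.75-fold higher in the resistant libraries, with log2 ratios of 0.33 [0.27, 0.39] and 0.81 [0.69, 0.93].

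For TAP2 the unit mattered. Its FPKM went from 15.9 to 33.8 in HCC827, a 2.13-fold difference that passes the 2-fold limit, whereas its count ratio does not. The deposited mean transcript length of TAP2 was 4831.4 bases in sensitive and 4147.0 bases in resistant HCC827, and a shorter length gives more FPKM per count. In H1975 the lengths were 3438.4 and 3551.9 bases. TAP1 and TAP2 counts were not whole in any library. The ratio of TAP1 to TAP2 FPKM was 0.759 and 1.04 in H1975 and 0.555 and 0.403 in HCC827. These ratios carry the effect of length too. The TAP1 length was 2653.5 bases in sensitive and 2804.9 bases in resistant HCC827.

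The TAP promoters are shown because these genes were higher in both resistant libraries. They lie at chr6:32853705-32853954 and chr6:32838740-32838989, minus strand, with the same source, build, length and capitals as for the HLA promoters.
TAP1 promoter: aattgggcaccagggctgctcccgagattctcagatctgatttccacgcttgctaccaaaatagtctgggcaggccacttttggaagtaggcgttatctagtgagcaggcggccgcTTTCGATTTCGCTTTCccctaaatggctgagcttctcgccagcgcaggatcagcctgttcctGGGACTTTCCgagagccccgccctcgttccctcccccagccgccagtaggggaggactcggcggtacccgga
TAP2 promoter: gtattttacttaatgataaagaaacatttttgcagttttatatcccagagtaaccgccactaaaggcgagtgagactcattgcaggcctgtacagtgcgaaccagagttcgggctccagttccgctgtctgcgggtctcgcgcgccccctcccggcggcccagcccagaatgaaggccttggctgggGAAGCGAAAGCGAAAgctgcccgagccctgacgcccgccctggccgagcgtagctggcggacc
TAP1 had 2 overlapping interferon element matches and 1 NF-kappaB match, 72 bases upstream of its start. TAP2 had 2 overlapping interferon element matches and no NF-kappaB match. Promoters were found for 8 of the 9 members; HLA-E had none in the table. Of these 8, 6 held an interferon element match and 5 an NF-kappaB match in at least 1 start site window, beside 9.08% and 5.21% of all 35116 promoter windows of the same length. The member figures count genes over 10 windows, while the background counts single windows, so the measures differ. TAP1 had a further start site window, not printed here, with neither match. The PSMB8 and PSMB9 windows held neither. The TAP1 matches printed above lie between the TAP1 and PSMB9 start sites, which are 488 bases apart. They fall outside the PSMB9 window, chr6:32853942-32854191, so their absence for PSMB9 depends on the window length. The motif letters were settled after the windows had been seen, and a match is a description of sequence, not of binding.

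TAPBP, which encodes the tapasin bridge between TAP and the heavy chain, was the steadiest member in level. It had 60.5 and 71.3 FPKM in sensitive and resistant H1975 and 64.1 and 63.3 FPKM in HCC827. The log2 ratio was 0.26 [0.21, 0.32] in H1975 and −0.07 [−0.15, 0.01] in HCC827. TAPBP counts were not whole in any library.

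The proteasome subunits PSMB8 and PSMB9 replace constitutive catalytic subunits in the immunoproteasome. PSMB8 had 2061 and 1951 counts in H1975 and 450 and 431 counts in HCC827. Its intervals included 0 in both lines, at −0.07 [−0.16, 0.02] and −0.13 [−0.32, 0.06]. PSMB9 had 1188 and 1037 counts in H1975 and only 79 and 117 in HCC827. It was lower in resistant H1975, at −0.19 [−0.31, −0.07], and higher in resistant HCC827, at 0.50 [0.07, 0.93], where the low counts leave a wide interval. Both genes had whole counts in all libraries.

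PSMB9 and TAP1 stand head to head, with 488 bases from the PSMB9 start site to the nearer TAP1 start site in RefSeq and 1431 bases to the other. Their ratios did not run together in H1975, where TAP1 was higher and PSMB9 lower in the resistant library. In HCC827 both were higher.

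Against its constitutive counterpart PSMB6, PSMB9 had an FPKM ratio of 0.315 and 0.235 in sensitive and resistant H1975 and 0.0362 and 0.0496 in HCC827. PSMB8 stood at 0.632 and 0.590 of PSMB5 in H1975 and 0.540 and 0.373 in HCC827. PSMB10, the remaining inducible catalytic subunit, stood at 0.160 and 0.113 of PSMB7 in H1975 and 0.335 and 0.257 in HCC827. Relative to their counterparts, PSMB9 and PSMB8 were thus lower in both HCC827 libraries than in either H1975 library, and PSMB10 was higher.

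**Figure D2:**
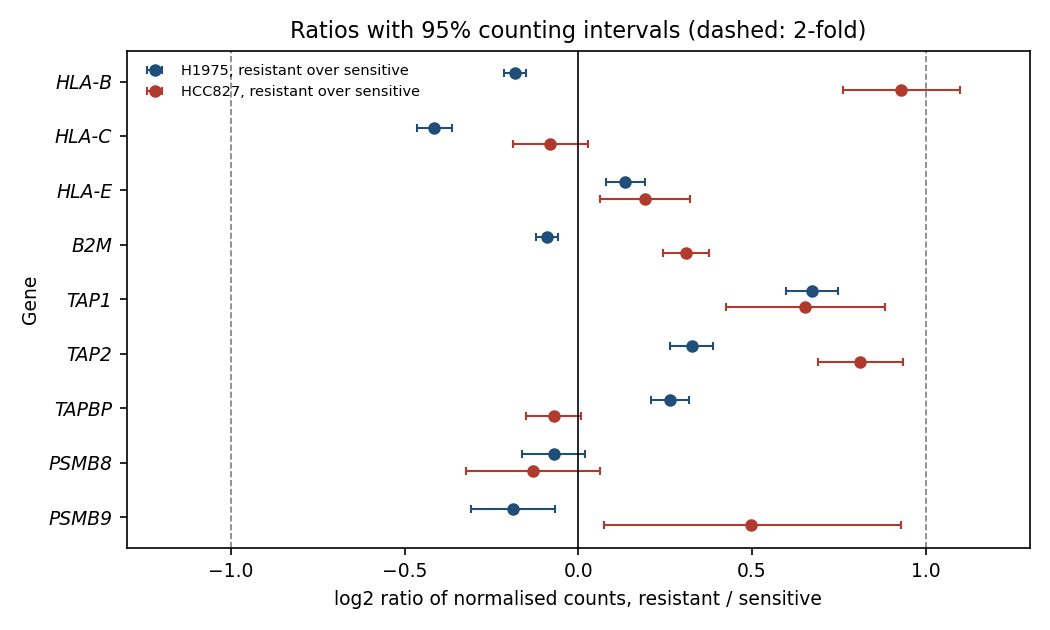
Log2 ratio of normalised counts, resistant over sensitive, for each of the 9 genes in H1975 and HCC827; bars are 95% exact intervals of counting error and dashed lines mark 2-fold. All points lie inside the 2-fold lines, TAP1 has near-equal ratios of 0.67 and 0.65, and HLA-B has −0.18 in H1975 and 0.93 in HCC827.

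The ratios of the 2 lines were set against each other by subtracting H1975 from HCC827 on the log2 scale. The difference was 1.11 [0.94, 1.28] for HLA-B, 0.69 [0.26, 1.11] for PSMB9, 0.48 [0.35, 0.62] for TAP2, 0.40 [0.33, 0.47] for B2M and 0.33 [0.22, 0.45] for HLA-C. It was −0.33 [−0.43, −0.24] for TAPBP. The intervals included 0 for HLA-E, TAP1 and PSMB8. So 5 members had the higher ratio in HCC827 beyond counting error, beside 34.0% of 10923 genes considered in both lines. HLA-B, B2M and PSMB9 had intervals on opposite sides of 0 in the 2 lines, a pattern seen in 18.0% of those genes. With 1 library a group the difference could not be tested against variation between cultures.

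With the 2 lines as replicates and the line as a block, edgeR's quasi-likelihood test called none of 13036 genes (0.0%) at an adjusted p of 0.05, and 1352 genes (10.4%) had an unadjusted p below that value. TAP1 had the largest estimate of the 9, a log2 fold change of 0.68 with a standard error of 0.22. It was higher in 2 of 2 lines, with an unadjusted p = 0.0289 and an adjusted p = 0.427 in edgeR. TAP2 followed at 0.58 with a standard error of 0.23, higher in 2 of 2 lines, and an edgeR adjusted p = 0.488. The adjusted p of the other 7 members lay between 0.731 and 0.923 in edgeR. Other tools were less strict: DESeq2 called 1235 genes and limma on log2(FPKM + 1) called 8. TAP1 was the only member that DESeq2 called, at 0.69 with an adjusted p = 0.00472, and over the other alternatives its adjusted p ranged from 0.424 to 0.9996.

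Few partners of the pathway outside the 9 genes were called, beside 11.8% of all genes considered in H1975 and 18.0% in HCC827. These shares also stand beside the list counts of the paragraphs that follow. None of 7 genes of peptide trimming and loading in the endoplasmic reticulum was called in either line. The chaperones CALR, CANX and HSPA5 of the endoplasmic reticulum had ratios of 0.26, 0.33 and 0.26 in H1975 and 0.15, 0.70 and −0.33 in HCC827. ERAP2, a peptide trimming protease named after its values were seen, had 23.2 and 20.6 FPKM in H1975 but 0.97 and 1.11 FPKM in HCC827. None of 3 constitutive catalytic subunits, 11 other core proteasome subunits or 4 other inducible proteasome genes was called in either line. PSME1 and PSME2, which form the interferon-inducible proteasome activator, and PSMB10 had ratios of −0.26, −0.14 and −0.53 in H1975 and −0.61, −0.46 and −0.52 in HCC827. These 3 were thus lower in both resistant libraries, while POMP, an assembly factor of the proteasome, had 0.10 and 0.57.

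Among 8 listed class I and class I-like genes described here beside the members, FCGRT and MR1 were called lower in resistant H1975. FCGRT, the neonatal Fc receptor, had −1.87 [−2.58, −1.20], and MR1, which presents vitamin metabolites, had −1.49 [−1.72, −1.27]. Both were also lower in resistant HCC827, short of the 2-fold limit, at −0.89 [−1.21, −0.56] for FCGRT and −0.73 [−1.01, −0.46] for MR1. In HCC827 MICB, a stress ligand of the NKG2D receptor, was called higher at 1.07 [0.80, 1.36], and its relative MICA stood at 0.96 [0.57, 1.36]. In H1975 MICA and MICB had ratios of 0.44 and 0.61. MICA, MICB and MR1 had counts that were not whole, so reads shared with similar sequence make their values uncertain. HFE, which regulates iron uptake, had −0.16 and −0.24, and CD1D lay at 0.02 to 0.08 FPKM.

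NLRC5, the class I transactivator, had 9.53 and 8.53 FPKM in sensitive and resistant H1975 and 0.81 and 0.96 FPKM in HCC827. Its log2 ratio was −0.32 [−0.44, −0.20] in H1975 and 0.19 [−0.32, 0.71] in HCC827, where it was below the 1 FPKM minimum. CIITA, the class II transactivator, was the only one of 16 class I regulators described here that was called in H1975, lower at −2.23 [−2.66, −1.81]. In HCC827 CIITA was called higher at 1.73 [1.05, 2.47], and the interferon signalling factor IRF9 was called lower at −2.59 [−2.92, −2.28]. RELA, an NF-kappaB subunit, and JAK1, an interferon receptor kinase, were abundant and not called, with ratios of 0.38 and 0.02 in H1975 and 0.13 and 0.21 in HCC827. NFKB1, another NF-kappaB subunit named after its values were seen, had 0.95 [0.86, 1.04] in H1975, short of the 2-fold limit at 1.94-fold. In HCC827 it had 0.12 [−0.05, 0.28].

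Of 9 interferon receptor and JAK pathway genes, the receptor subunit IFNAR2 was called higher in resistant H1975 at 1.42 [1.24, 1.61]. In resistant HCC827 the feedback inhibitor SOCS1 was called higher at 2.20 [1.54, 2.92] and the kinase JAK2 lower at −1.86 [−2.61, −1.16]. Of 4 genes of surface class I turnover, none was called, and all 4 ratios were below 0 in both lines. Of all genes considered, 50.13% in H1975 and 49.91% in HCC827 had a ratio above 0. The MARCHF9 interval included 0 in H1975, at −0.05 [−0.56, 0.45]. TMEM127, which with SUSD6 and WWP2 directs class I molecules to lysosomes, had 18.7 and 11.3 FPKM in H1975 and 24.3 and 13.4 FPKM in HCC827, ratios of −0.72 and −0.91.

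Interferon-stimulated genes gave a different picture from the 9 members in HCC827. Of 29 considered there, 22 were called lower and 2 higher in the resistant library, with a median log2 ratio of −2.04, while the members' median was 0.31. Furthest lower were HERC5 at −4.96 [−6.86, −3.57], MX1 at −4.86 [−5.60, −4.20], OAS2 at −4.03 [−5.38, −2.94] and IFI44 at −3.75 [−4.12, −3.41]. HERC5 and OAS2 had only 4 and 7 counts in resistant HCC827, so this order is uncertain. The 2 called higher were the guanylate-binding proteins GBP1 at 1.31 and GBP2 at 1.20, named after their values were seen. In H1975, 4 of 33 were called higher and 1 lower, with a median of 0.56, namely MX2 (1.505), OAS2 (1.35), IFIT1 (1.10) and GBP1 (1.06) against IFI27 (−1.59). Over all 11872 genes considered in H1975, 381 were called higher and 1016 lower. Over all 11890 in HCC827, 838 were called higher and 1302 lower. No test compares the lists, and the low interferon genes were known before the members were chosen.

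**Figure D3:**
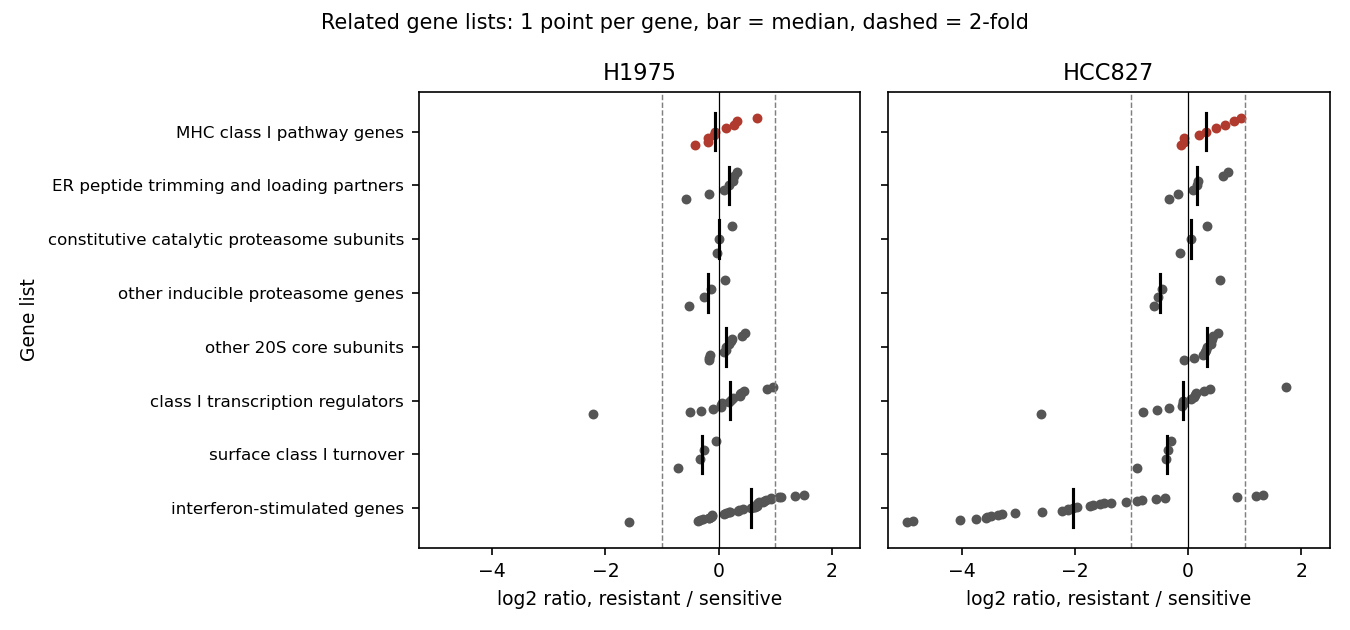
Log2 ratios, resistant over sensitive, of the genes in 8 lists in H1975 (left) and HCC827 (right); each point is 1 gene that passed the minimum level, bars mark list medians and dashed lines 2-fold. In HCC827 the interferon-stimulated genes have a median of −2.04 and the MHC class I pathway genes one of 0.31.

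The genes whose levels over the 4 libraries lay nearest the mean pattern of the 9 members were TRAF3, TMEM38B and EBP. Likeness was the Euclidean distance between centred log2(FPKM + 1) profiles, 0.070 for TRAF3, 0.072 for TMEM38B and 0.080 for EBP, among 12886 genes. TRAF3 had 21.3 and 21.4 FPKM in H1975 and 5.42 and 7.98 FPKM in HCC827. With 4 libraries, many genes can lie close by.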

How the data were processed

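Messenger RNA was sequenced from 4 libraries, 1 for each group, grouped by the drug response label. The build was hg19 and the tools were RSEM, HISAT2 and Bowtie2, per the submitters' processing notes; the sources used here give neither versions nor strand settings. The authors deposited RSEM expected counts, which are estimated and need not be whole, and FPKM values per NCBI Gene ID. Genes at 0 have no row and were set to 0. H1975 and HCC827 files use different RefSeq transcript sets, the former with predicted models for 65.8% and 66.1% of genes.

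Symbols came from a RefSeq table (GRCh38.p14). Expected counts were rounded. Within a line, libraries were scaled by TMM (edgeR 4.0.16), with genes considered at 1 FPKM and 20 counts in at least 1 library, and ratios carry 95% Clopper-Pearson intervals of the conditional binomial. Reads are not unique molecules, so these cover counting error only. The interval of the difference between lines is a normal approximation on the same counts. Over both lines the test was edgeR's quasi-likelihood test on genes listed in all 4 files, two-sided, filterByExpr, line as block, Benjamini-Hochberg adjusted. It was also run on simulated counts with the same fixed spread for every gene, which does not show how it performs on these data. The block pairs each resistant library with the sensitive library of its own line. DESeq2 1.42.0 and limma 3.58.1 were alternatives.

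The members, gene lists and tests were chosen with earlier results of these data known. All members are named, as are called genes of other lists (the 4 furthest where more than 5 were called) and up to 3 abundant uncalled ones; NLRC5 and SUSD6 are named for their roles. Some genes of the lists are not reported here and stand in none of the list counts.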

Additional observations from a re-analysis of the deposited data

Results flagged for a closer look

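HLA-B, B2M and PSMB9 had resistant-to-sensitive ratios on opposite sides of 0 in the 2 lines, with both counting intervals excluding 0: lower in resistant H1975 and higher in resistant HCC827. The difference, HCC827 minus H1975 on the log2 scale, was 1.11 for HLA-B, 0.40 for B2M and 0.69 for PSMB9. The difference was not tested against variation between cultures, since each group has 1 library.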

How the results depend on the processing

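No member was called at 2-fold in either line with library totals, DESeq2 size factors or no filter on low values. On log2(FPKM + 1) and on log2(FPKM + 0.1), a call rested on the 2-fold limit alone, with no interval. There 1 member was called in HCC827, TAP2 at 1.04 and 1.08, with 1534 and 2069 of all genes called in that line. With a limit of 1.5-fold, 1 member was called in H1975 and 3 in HCC827, and all genes called numbered 2859 and 4085 instead of 1397 and 2140. Without the filter on low values, 2147 genes were called in H1975. Over both lines, edgeR called 0 genes with the replicate block by line and 0 with no replicate block, DESeq2 called 1235 and limma 8. With no replicate block the estimate of HLA-B reversed to −0.069 and that of PSMB9 to −0.058. Leaving out 1 line gives the ratio of the other, with no test: −0.18 to 0.93 for HLA-B, −0.089 to 0.31 for B2M, −0.071 to 0.26 for TAPBP and −0.19 to 0.50 for PSMB9, each of which changed sign. The planned sum over class I heavy chain genes is not reported. Of the members, low counts limit PSMB9 in HCC827 most, at 79 and 117 counts in sensitive and resistant cells.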
